A study of Mus musculus with 39 samples.

Results

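Esrrb, Tfcp2l1, Nr5a2, Tbx3, Zfp42, Prdm14 and Sall4 encode transcription factors of the naive pluripotency network, and the chromatin of these 7 genes, out of 21938 annotated protein-coding genes, was examined in naive extra-embryonic endoderm (nEnd). Members were taken by name, and each locus was the gene body with 50 kb either side in GRCm38, with every annotated transcription start site (TSS) of GENCODE vM21. The 36 peak lists held 423 peaks in the 7 loci, of 432096 in all. nEnd is a mouse culture that models the primitive endoderm of the blastocyst. It was grown in defined medium with Activin A, CHIR99021 and LIF on feeder fibroblasts, from a single line that carries an OCT4-mCherry fusion reporter, and received no further treatment. Cells were sorted by flow cytometry into an OCT4-mCherry single-positive population (Oct4+), a population positive for OCT4-mCherry and PDGFRA (DP) and a PDGFRA single-positive population (Pdgfra+). H3K4me1, H3K27ac, H3K27me3 and H3K9me3 were each profiled by CUT&Tag in 3 replicates of each population. The comparison asked how marks of enhancers and of silent chromatin at naive factor genes differed between the pluripotent cells of the culture (Oct4+), endoderm that retains OCT4 (DP) and endoderm that has lost it (Pdgfra+).

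Naive pluripotency is the state of the early epiblast and of mouse embryonic stem cells. ESRRB and NR5A2 are orphan nuclear receptors that bind the same kind of site, TFCP2L1 is a grainyhead-family factor downstream of LIF and STAT3, and TBX3 is a T-box repressor that also has a role in early endoderm. Zfp42 encodes the zinc finger protein REX1, a common marker of naive cells, PRDM14 is a PR-domain protein that represses differentiation genes, and SALL4 is a zinc finger partner of OCT4 and NANOG. H3K4me1 marks enhancers, H3K27ac marks active enhancers and promoters, H3K27me3 is the Polycomb mark, and H3K9me3 marks heterochromatin.

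The value reported for a locus is the covered percent, the share of the locus lying under listed peaks in a library. Lists ran from 1074 to 16057 peaks for H3K4me1, 3079 to 65131 for H3K27ac, 1143 to 8672 for H3K27me3 and 5322 to 29970 for H3K9me3, and the depth of the libraries behind them is unknown. A locus at 0 had no listed peak, which is not the same as having no mark. The rank of a locus among all genes of its own library (the percentile) is therefore given as well for the enhancer marks and where it bears on a comparison. The identity of the populations was checked on marker lists. The median covered percent for H3K27ac over 5 pluripotent markers was 16 in Oct4+, 6.15 in DP and 2.19 in Pdgfra+, and over 15 primitive endoderm markers it was 3.81, 13.3 and 9.54. A promoter was the stretch between 1 kb before and 100 bp after a TSS. Promoters carried H3K27ac in at least 2 of 3 libraries at 6, 15 and 12 of the endoderm markers and at 5, 1 and 1 of the pluripotent markers. Over 10 fibroblast markers the summed H3K27ac covered percent had a lowest and highest value of 1.5 and 51.7 among the Oct4+ libraries, 0 and 25.8 among DP and 0 and 11.4 among Pdgfra+. Of the 10, all but Prrx1 had H3K27ac in an Oct4+ library, Col1a1, Thy1, Dcn, Lum and Fn1 had it in a DP library, and Col1a1, Thy1 and Fn1 in a Pdgfra+ library. Col1a2, Col3a1, Twist1, Meox1 and Prrx1 were at 0 in the 6 DP and Pdgfra+ libraries, and 1, 0 and 0 of the 10 promoters carried the mark in at least 2 libraries. The part of fibroblast chromatin in the values at the naive genes was not tested.

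Across the members, H3K27ac was widest in Oct4+, with a median covered percent of 12.7, against 4.18 in DP and 0.682 in Pdgfra+, where the medians over all protein-coding genes were 5.97, 2.04 and 0.701. H3K4me1 covered a median of 10.5, 5.4 and 1.42% of the member loci, against 0.731, 1.02 and 0% over all genes. H3K27ac was listed at a promoter of 7 of 7 members in at least 2 Oct4+ libraries (37.4% of all genes) but of 2 of 7 in DP (33.1%) and in Pdgfra+ (20.4%). For H3K4me1 the counts were 5, 3 and 0 of 7, beside 6.79, 9.33 and 1.5% of genes. In at least 2 DP libraries, acetylation of the promoters was found at the 2 members that also carried it in Pdgfra+, Tbx3 and Sall4. The Oct4+ promoter peaks of Tfcp2l1, Nr5a2, Prdm14 and Zfp42 had summed signals of 6773 to 17080. All but the 17080 at Tfcp2l1 were close to or below the weakest peaks of the DP lists (13683 to 14586). The lists can therefore not show that the mark was absent from these promoters in DP.

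**Figure D1:**
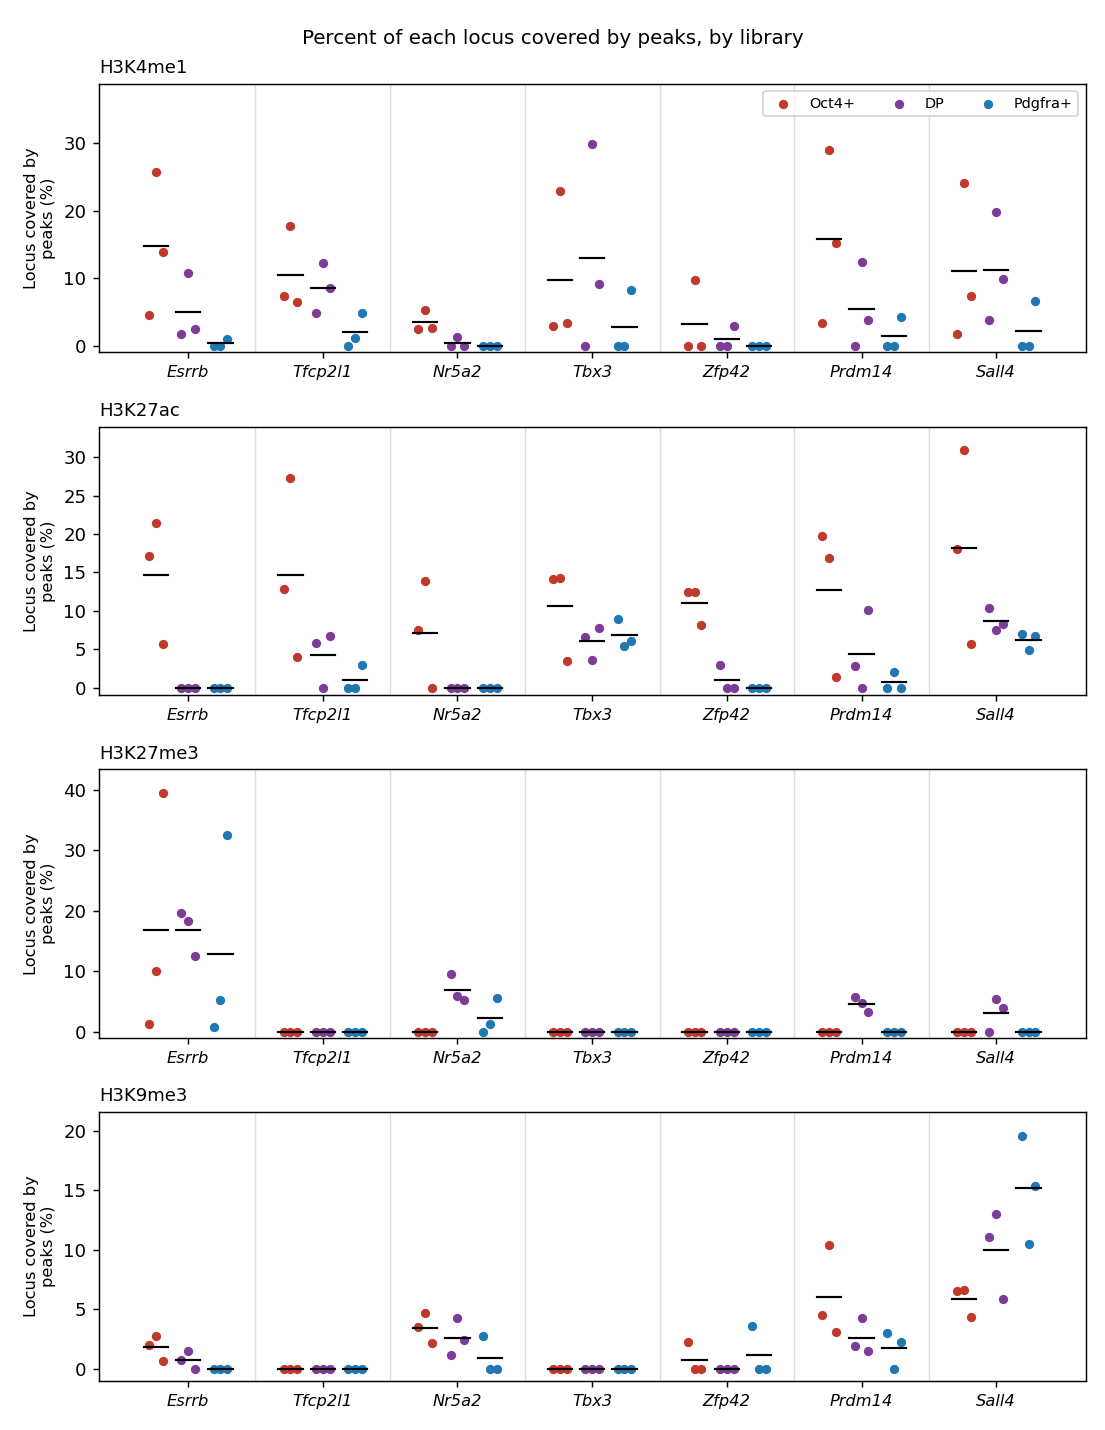
Covered percent (y axis, % of the locus under listed peaks) of the 7 loci (x axis) in each library, 1 panel per mark; points are libraries (red Oct4+, purple DP, blue Pdgfra+) and bars are means of 3. For H3K27ac at Esrrb the Oct4+ points lie at 5.65 to 21.4 and the other 6 at 0, and for H3K9me3 at Sall4 the Pdgfra+ points (10.5 to 19.6) lie above the Oct4+ points (4.37 to 6.6).

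The 3 populations were compared gene by gene with an exact permutation test of the F statistic over every assignment of the 9 libraries to the populations, adjusted by the Benjamini-Hochberg method over every gene covered in at least 1 library. No gene passed an adjusted p of 0.05 for any mark (0% called). The smallest p of this design is 0.00357, so that at least 7.14% of all genes tested had to pass together for any to do so, and a change confined to few genes could not be called. The test left 883 of 15539 genes (5.68%) at an unadjusted p under 0.05 for H3K4me1, 2003 of 20040 (10%) for H3K27ac, 930 of 12410 (7.49%) for H3K27me3 and 2254 of 17385 (13%) for H3K9me3. Members reached that unadjusted level at Esrrb and Nr5a2 for H3K4me1, Esrrb and Zfp42 for H3K27ac, and Nr5a2 and Prdm14 for H3K27me3. The limma F test gave 0, 0, 0 and 860 genes (4.95% for H3K9me3), none of them a member. Pairs of populations could not go below an exact two-sided p of 0.10 with 3 libraries against 3. Pairs are described by whether every library of the first population lay above every library of the second, beside the share of all covered genes for which this was so. For H3K27ac, every Oct4+ library exceeded every Pdgfra+ library at 3 of 7 members (Esrrb, Tfcp2l1 and Zfp42), beside 19.9% of genes, and every DP library at 2 (Esrrb and Zfp42), beside 9.42%. For H3K4me1 the first comparison held for Esrrb, Tfcp2l1 and Nr5a2 (3 of 7, beside 11.3%), the second for Nr5a2 (1 of 7, beside 4.31%), and DP exceeded Pdgfra+ at Esrrb (1 of 7, beside 6.07%). The opposite directions held for no member. For H3K4me1 they held for 0.644% of genes (Pdgfra+ above Oct4+), 6.33% (DP above Oct4+) and 0.0515% (Pdgfra+ above DP), and for H3K27ac for 0.364, 0.289 and 0.18%. For H3K27me3 no member had Oct4+ above Pdgfra+ (3.14% of genes), Oct4+ above DP (0.629%), Pdgfra+ above Oct4+ (0.967%) or Pdgfra+ above DP (0.0403%). For H3K9me3 none had Oct4+ above DP (11.1%), DP above Pdgfra+ (3.84%), DP above Oct4+ (9.83%) or Pdgfra+ above DP (1.25%). Of the 3 H3K27ac lists of Oct4+, that of replicate 3 held 8574 peaks, against 38619 and 65131. Without it, the Oct4+ libraries lay above Pdgfra+ at 7 of 7 members, beside 74.4% of genes, and above DP at 7 of 7, beside 58.2%. Without DP replicate 2, DP lay above Pdgfra+ at 3 members, beside 40.8%. For H3K4me1, leaving out Pdgfra+ replicate 3 gave Oct4+ above Pdgfra+ at 6 members, beside 30.8% of genes, and DP above Pdgfra+ at 3, beside 34.2%. Without Oct4+ replicate 1 there were 5 members with Oct4+ above Pdgfra+ (29.3%) and 3 with Oct4+ above DP (12.8%). DP lay above Pdgfra+ at 4 without DP replicate 1 (37%), and Oct4+ above DP at 2 without DP replicate 2 (9.12%). The share of all genes rose along with each of these counts.

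Esrrb had the largest H3K27ac difference between Oct4+ and Pdgfra+ of the 7 genes. It encodes an orphan nuclear receptor and lies on chromosome 12 (chr12:86361117-86521628, + strand) with 5 annotated TSSs spread over 143 kb. H3K27ac covered 17.1, 21.4 and 5.65% of the locus in Oct4+ replicates 1 to 3 and 0% in each of the 3 DP and 3 Pdgfra+ libraries (means 14.7 ± 8.13, 0 and 0, SD, n = 3). The Oct4+ libraries did not overlap the other 6, and their percentiles of 79.3 to 89.6 compared with 17.9 to 34.3 for the loci without a peak. The exact permutation p was 0.0357 and adjusted p was 0.388, and limma gave an adjusted p of 0.0656. When every H3K27ac list was cut to its 3079 strongest peaks, Esrrb still had 11.5, 9.73 and 4.67% covered in Oct4+ and 0 in the rest. The acetylated interval with the highest signal, chr12:86496147-86515151, lay 145 kb into the gene over the TSS farthest into the gene. Its summed signals in Oct4+ were 102554, 110923 and 59732, each above the weakest peak listed in any DP library (13683 to 14586) or Pdgfra+ library (8736 to 28044). Another interval at chr12:86465056-86476399, over the TSS at 109 kb, was listed at 34908, 22955 and 5922 in Oct4+ and nowhere else. The Oct4+ replicate 3 value there was below what any DP or Pdgfra+ list contained.

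The strongest point of that Esrrb H3K27ac interval, chr12:86501658-86501957 (GRCm38, + strand, intron of Esrrb), is shown because it holds a nuclear receptor motif, TNAAGGTCA, in capitals here as its reverse complement. Both ESRRB and NR5A2 bind such a motif. Windows of 300 bases at peak maxima were searched on both strands for 6 motifs, and TNAAGGTCA occurred in 2.06% of the 65131 windows of the same library. The match is a description of the letters, and binding was not measured.
Esrrb H3K27ac maximum: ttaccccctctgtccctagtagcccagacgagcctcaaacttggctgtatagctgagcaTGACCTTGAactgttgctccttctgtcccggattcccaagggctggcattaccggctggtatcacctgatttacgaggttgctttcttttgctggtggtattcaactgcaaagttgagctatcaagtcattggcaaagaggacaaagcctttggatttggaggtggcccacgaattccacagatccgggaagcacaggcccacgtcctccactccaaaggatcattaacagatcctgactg

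H3K4me1 at Esrrb extended to DP. It covered 4.54, 25.8 and 13.9% of the locus in Oct4+, 1.73, 10.8 and 2.48% in DP and 0, 0 and 0.97% in Pdgfra+ (14.8 ± 10.7, 5.02 ± 5.06 and 0.323 ± 0.56, exact permutation p = 0.0393, adjusted p = 0.738). Every DP library lay above every Pdgfra+ library, while Oct4+ replicate 1 lay below DP replicate 2. With equal numbers of peaks, the DP values were 0.971, 6.72 and 1.61% and the Pdgfra+ values were all 0. A merged interval at chr12:86465997-86499653 was listed in 3 Oct4+, 3 DP and 1 Pdgfra+ libraries. H3K27ac overlapped it in 3 Oct4+ and 0 DP libraries, and H3K27me3 in 2 Pdgfra+ libraries and in no Oct4+ or DP library. Of the 8.44 kb covered by H3K4me1 in at least 2 DP libraries, 4.27 kb (50.6%) was acetylated in at least 2 Oct4+ libraries. H3K27me3 in at least 2 Pdgfra+ libraries lay over 2.22 kb (26.3%) of it.

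The Polycomb mark lay on the first part of the Esrrb gene in all 3 populations, and in 2 Pdgfra+ libraries also farther into the gene. H3K27me3 at chr12:86397437-86428879 was listed in 9 of 9 libraries, and peaks covered the promoters of the TSSs 60.5 and 60.8 kb into the gene in 3 Oct4+, 3 DP and 1 Pdgfra+ libraries. The TSSs at 109 and 143 kb carried H3K27ac in 2 and 3 Oct4+ libraries and H3K27me3 in 1 Pdgfra+ library each. Within Oct4+, bases under H3K27me3 in at least 2 libraries (26.2 kb) shared 0 kb with those under H3K27ac (30.5 kb) or H3K4me1 (35.9 kb). The covered percent for H3K27me3 was 1.29, 10 and 39.4 in Oct4+, 19.7, 18.4 and 12.5 in DP and 0.834, 5.26 and 32.5 in Pdgfra+. These ranges overlapped (exact permutation p = 0.936, adjusted p = 1), and Oct4+ and Pdgfra+ each spread widely between replicates. Libraries of Oct4+ and Pdgfra+ with the same replicate number deviated together for this mark (correlations of 0.657, 0.356 and 0.616), and Oct4+ exceeded Pdgfra+ at Esrrb in 3 of 3 such pairs, as at 11.5% of genes. H3K9me3 covered 2.04, 2.81 and 0.637% in Oct4+, 0.776, 1.55 and 0% in DP and 0% in each Pdgfra+ library. For this mark Oct4+ lay above Pdgfra+ at 2 of the 5 members covered, Esrrb and Prdm14, beside 14.3% of genes, and at neither with equal numbers of peaks.

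**Figure D2:**
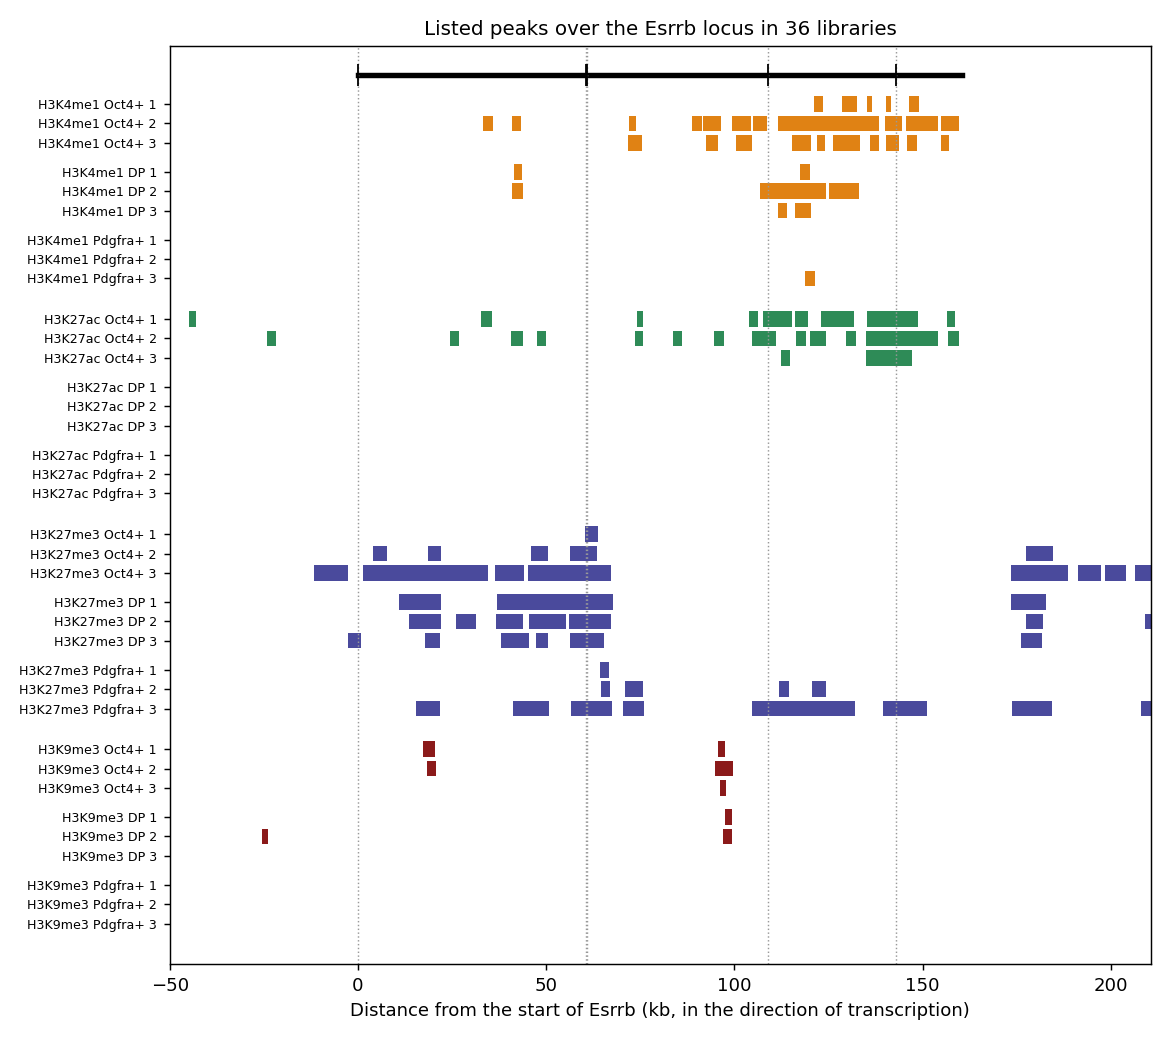
Listed peaks over Esrrb in 36 libraries; the x axis is distance from the start of the gene in kb, each row is a library, boxes are peaks coloured by mark, the black bar is the gene and dotted lines are its 5 TSSs. H3K27me3 lies around the TSSs at 60.5 and 60.8 kb, and H3K27ac, listed in Oct4+ alone, lies over the TSSs at 109 and 143 kb.

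Tfcp2l1 (chr1:118627945-118685168, + strand) carried only the enhancer marks, with 28 H3K4me1 and 28 H3K27ac peaks and no H3K27me3 or H3K9me3 peak in any library. Its window also takes in part of Clasp1. H3K4me1 covered 7.31, 17.7 and 6.48% in Oct4+, 4.85, 12.3 and 8.53% in DP and 0, 1.1 and 4.88% in Pdgfra+ (10.5 ± 6.23, 8.56 ± 3.72 and 1.99 ± 2.56, exact permutation p = 0.136, adjusted p = 0.738). Oct4+ and DP overlapped, and Oct4+ lay above Pdgfra+ in all libraries. By percentile Oct4+ (98.5, 92.9 and 89.8) overlapped Pdgfra+ (43.2, 93.6 and 80.1). H3K27ac covered 12.8, 27.3 and 3.93% in Oct4+, 5.82, 0 and 6.73% in DP and 0, 0 and 2.91% in Pdgfra+ (exact permutation p = 0.0893, adjusted p = 0.484). With equal numbers of peaks the values were 2.34, 3.38 and 0% in Oct4+, 0 in DP and 0, 0 and 2.91% in Pdgfra+, and the groups overlapped. The promoter held H3K4me1 in 3 Oct4+, 3 DP and 0 Pdgfra+ libraries, a pattern shared by 27 genes (0.123%), and H3K27ac in 2, 0 and 0. The H3K27ac peaks there had summed signals of 11016 and 17080, the first below the weakest peak of every DP list (13683 to 14586). The H3K4me1 pattern, like the other promoter patterns counted over all genes, was chosen after the members' values were seen.

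Inside the first part of Tfcp2l1, 2 acetylated intervals differed in where they were found. The interval at chr1:118637958-118647031 was listed for H3K27ac in 3 Oct4+ libraries (27470, 21629 and 14880) and in no other, while H3K4me1 overlapped it in 3 Oct4+ and 3 DP libraries. Its neighbour, chr1:118647210-118653074, was acetylated in 3 Oct4+, 2 DP and 1 Pdgfra+ libraries. In DP, 58.6% of the 9.2 kb under H3K4me1 was acetylated in Oct4+ and 37.1% in DP itself, each in at least 2 libraries. The maximum of the shared interval, chr1:118649345-118649644 (+ strand, intron of Tfcp2l1, from DP replicate 1), is shown because it holds the paired motif of TFCP2L1 itself, in capitals. That motif was in 4.19% of the 10957 windows of this library. The RefSeq promoter, chr1:118627695-118627944 (+ strand), holds GGGNGTGG, a KLF-type motif, at 2 places in capitals, and 15.9% of 32851 RefSeq promoters of 250 bases held at least 1.
Tfcp2l1 shared H3K27ac maximum: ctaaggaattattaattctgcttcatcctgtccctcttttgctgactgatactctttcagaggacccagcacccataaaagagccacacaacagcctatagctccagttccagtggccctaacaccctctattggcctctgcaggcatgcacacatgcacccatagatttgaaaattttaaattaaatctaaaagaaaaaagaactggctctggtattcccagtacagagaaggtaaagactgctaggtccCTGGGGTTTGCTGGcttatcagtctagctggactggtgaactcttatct
Tfcp2l1 promoter: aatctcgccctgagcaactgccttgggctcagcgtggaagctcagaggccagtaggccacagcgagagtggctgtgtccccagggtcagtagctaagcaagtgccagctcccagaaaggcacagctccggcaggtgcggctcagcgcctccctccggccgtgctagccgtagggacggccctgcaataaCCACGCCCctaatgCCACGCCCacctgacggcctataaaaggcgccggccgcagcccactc

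Prdm14 and Nr5a2 shared a promoter pattern, with active marks in Oct4+ and H3K27me3 in DP. Prdm14, a repressor of differentiation genes (chr1:13113457-13127163, - strand) has 1 TSS. Its promoter carried H3K4me1 in 3 of 3 and H3K27ac in 2 of 3 Oct4+ libraries, with neither in any DP or Pdgfra+ library, and H3K27me3 in 3 of 3 DP libraries only. The summed signals of these H3K27ac peaks, 9751 and 6773, were below the weakest peak of every DP list (13683 to 14586). Nr5a2, a nuclear receptor gene (chr1:136842571-136960448, - strand), has 6 TSSs. At the TSS 6.82 kb into the gene, H3K4me1 was listed in 3, 0 and 0 libraries of Oct4+, DP and Pdgfra+, H3K27ac in 2, 0 and 0 and H3K27me3 in 0, 3 and 1. The H3K27ac peaks there, with summed signals of 13796 and 12953, were also close to or below the weakest peaks of the DP lists. The TSSs at 10.9 and 11.3 kb carried H3K4me1 in 2, 1 and 0 libraries, H3K27me3 in 0, 3 and 2 and H3K27ac in none. H3K27me3 at a promoter in all DP and no Oct4+ library, with H3K27ac in at least 2 Oct4+ libraries, was found at 106 genes (0.483%). Among the members it occurred at these 2.

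H3K27me3 covered 5.76, 4.71 and 3.27% of the Prdm14 locus in DP and 0% in the other 6 libraries (exact permutation p = 0.0357, adjusted p = 0.54). At Nr5a2 it covered 9.59, 6.02 and 5.24% in DP, 0 in Oct4+ and 0, 1.27 and 5.61% in Pdgfra+ (6.95 ± 2.32, 0 and 2.29 ± 2.94, exact permutation p = 0.0286, adjusted p = 0.54). DP thus lay above Oct4+ at 2 of the 4 members covered by H3K27me3, beside 23.7% of genes, and above Pdgfra+ at 1, beside 14.9%. With 1143 peaks per list the Nr5a2 values in DP stayed at 5.83, 6.02 and 5.24%, while the Prdm14 peaks (summed signals of 66270, 38830 and 24378) dropped out of all lists. Without Pdgfra+ replicate 3, DP lay above Pdgfra+ at 3 members, beside 56.2% of genes, and at 2 without DP replicate 1 (23.8%) or DP replicate 3 (27.3%). Bases covered in at least 2 libraries were also compared. H3K27me3 in DP shared 3.35 kb with the H3K4me1 of Oct4+ at Prdm14, and at Nr5a2 it took in all 7.31 kb (100%) of the H3K4me1 of Oct4+.

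H3K4me1 at Prdm14 covered 3.36, 29 and 15.2% in Oct4+, 0, 12.4 and 3.82% in DP and 0, 0 and 4.25% in Pdgfra+ (exact permutation p = 0.132, adjusted p = 0.738). Oct4+ replicate 1 lay below 2 DP libraries and 1 Pdgfra+ library. By percentile, Oct4+ (92.4, 98.4 and 98.4) lay above DP (36, 82.9 and 74.9) and Pdgfra+ (43.2, 45.5 and 77.3) at Prdm14, beside 14.5 and 15.7% of genes. H3K27ac covered 19.7, 16.9 and 1.38%, then 2.85, 0 and 10.1%, and 0, 2.04 and 0%, so that Oct4+ replicate 3 lay within the range of the other populations. At Nr5a2 H3K4me1 covered 2.49, 5.28 and 2.55% in Oct4+, above DP (0, 1.28 and 0) and Pdgfra+ (all 0). The exact permutation p was 0.0357 and adjusted p was 0.701. Its percentiles in Oct4+ (88.9, 70 and 75.5) lay above those of the other 6 libraries (25.5 to 47.2), but with equal numbers of peaks no H3K4me1 peak was left at Nr5a2 in any library. H3K27ac was listed at Nr5a2 in 2 Oct4+ libraries (7.55 and 13.9%) and in no other. H3K9me3 peaks away from these promoters covered 4.57, 10.4 and 3.11% of the Prdm14 locus in Oct4+, 1.96, 4.27 and 1.51% in DP and 2.99, 0 and 2.3% in Pdgfra+ (exact permutation p = 0.0929, adjusted p = 0.492). At Nr5a2 the H3K9me3 ranges of the 3 populations overlapped.

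Both enhancer marks also lay outside the Prdm14 gene. An interval 45.6 kb past the start and beyond its end, chr1:13076061-13087045, carried H3K4me1 in 3 Oct4+ libraries and in no other, and H3K27ac at chr1:13076176-13086257 did the same. The maxima of both marks fell in the same 300 bases, chr1:13085156-13085455 (+ strand, between genes), in Oct4+ replicate 2 for H3K4me1 and replicate 1 for H3K27ac. An H3K9me3 peak of Oct4+ replicate 2, from 40.654 to 42.984 kb past the start, also covered this window. This window is shown with the H3K27me3 maximum of DP, chr1:13126235-13126534 (+ strand, intron of Prdm14), as the elements that differed between the populations. The first held none of the 6 motifs. GGGNGTGG, in capitals, was found in the second and in 15.2% of the 3798 windows of its library. The H3K4me1 maximum inside Nr5a2, chr1:136954263-136954562 (+ strand, intron), lies in the interval that was under H3K4me1 in Oct4+ and H3K27me3 in DP and held none of the motifs.
Prdm14 distal element: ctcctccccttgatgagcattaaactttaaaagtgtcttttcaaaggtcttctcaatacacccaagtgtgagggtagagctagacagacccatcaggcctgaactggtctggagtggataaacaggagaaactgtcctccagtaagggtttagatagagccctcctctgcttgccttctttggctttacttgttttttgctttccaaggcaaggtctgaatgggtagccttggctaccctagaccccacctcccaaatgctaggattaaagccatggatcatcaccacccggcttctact
Prdm14 H3K27me3 maximum: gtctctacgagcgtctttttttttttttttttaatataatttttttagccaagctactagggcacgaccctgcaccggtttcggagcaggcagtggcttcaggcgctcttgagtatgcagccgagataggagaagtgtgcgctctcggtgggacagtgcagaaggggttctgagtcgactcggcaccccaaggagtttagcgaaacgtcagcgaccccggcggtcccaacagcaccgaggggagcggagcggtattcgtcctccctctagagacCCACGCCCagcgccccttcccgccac
Nr5a2 H3K4me1 maximum: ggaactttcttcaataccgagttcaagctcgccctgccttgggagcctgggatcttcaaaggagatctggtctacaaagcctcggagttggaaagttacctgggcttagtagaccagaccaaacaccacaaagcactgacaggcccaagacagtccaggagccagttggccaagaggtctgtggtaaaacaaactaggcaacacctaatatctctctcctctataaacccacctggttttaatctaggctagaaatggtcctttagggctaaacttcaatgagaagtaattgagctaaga

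**Figure D3:**
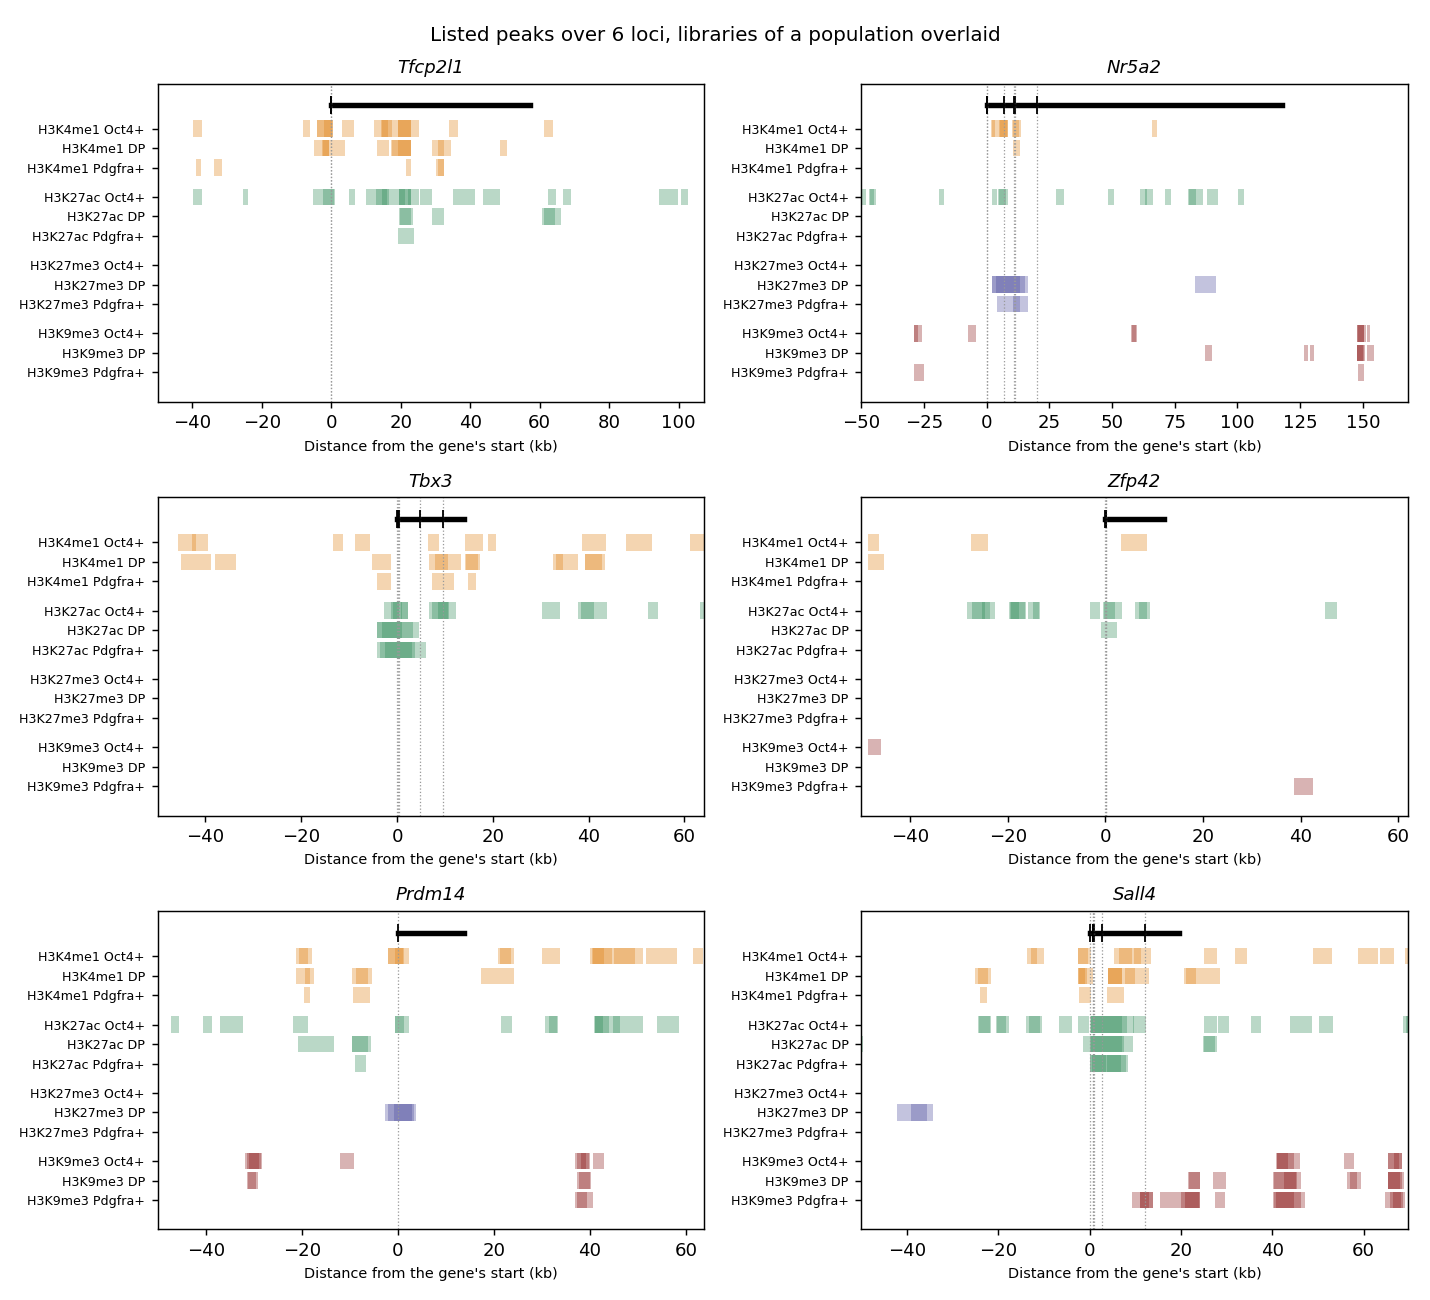
Listed peaks over the other 6 loci; the x axis is distance from the start of each gene in kb in the direction of transcription, rows are a mark in a population with its 3 libraries overlaid (darker where more libraries have a peak), the black bar is the gene and dotted lines are TSSs. H3K27me3 in DP covers the start of Prdm14 and the TSSs 6.82 to 11.3 kb into Nr5a2, and H3K9me3 in Pdgfra+ lies over the end of Sall4.

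Zfp42 (chr8:43295063-43306980, - strand) was marked mainly by H3K27ac, with 16 of its 22 peaks. It covered 12.4, 12.4 and 8.12% of the locus in Oct4+, 2.96, 0 and 0% in DP and 0 in Pdgfra+ (11 ± 2.47, 0.986 ± 1.71 and 0, exact permutation p = 0.0357, adjusted p = 0.388, limma adjusted p = 0.0782). The Oct4+ libraries lay above the other 6. Intervals 18 and 25.5 kb upstream, chr8:43323267-43326751 and chr8:43329689-43335294, were each listed in 3 of 3 Oct4+ libraries and nowhere else. Their summed signals, 5671 to 12936, were below the weakest peak of every DP list (13683 to 14586). With equal numbers of peaks a peak was left in Oct4+ replicate 3 alone (3.29%), and the groups overlapped. The promoter was listed in 2 Oct4+ libraries, with summed signals of 7436 and 9535, and in DP replicate 1, with 18005. Both Oct4+ signals were also below the weakest peak of every DP list. H3K4me1 was listed in 1 Oct4+ library (9.75%) and 1 DP library (2.84%), at no promoter. H3K9me3 was listed in Oct4+ replicate 1 (2.24%) and Pdgfra+ replicate 1 (3.58%), away from the gene, and H3K27me3 in no library.

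The maximum of the nearer upstream interval, chr8:43324871-43325170 (+ strand), held ATGCNAAT, the octamer bound by OCT4, and GGGNGTGG, both in capitals. So did the RefSeq promoter of Zfp42, chr8:43307010-43307259 (- strand). They are shown side by side because the same pair of motifs occurred in the interval listed in Oct4+ alone and in the promoter, which was also listed in DP. Among RefSeq promoters, 2.86% held the octamer, and among windows of the library that gave the upstream maximum 3.16% held the octamer and 12.8% GGGNGTGG.
Zfp42 upstream H3K27ac maximum: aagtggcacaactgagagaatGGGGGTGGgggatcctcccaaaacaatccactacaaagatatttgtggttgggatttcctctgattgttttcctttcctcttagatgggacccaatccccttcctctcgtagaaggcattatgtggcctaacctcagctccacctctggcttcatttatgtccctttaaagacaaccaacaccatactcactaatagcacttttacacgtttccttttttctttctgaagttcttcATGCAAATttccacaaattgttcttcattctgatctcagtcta
Zfp42 promoter: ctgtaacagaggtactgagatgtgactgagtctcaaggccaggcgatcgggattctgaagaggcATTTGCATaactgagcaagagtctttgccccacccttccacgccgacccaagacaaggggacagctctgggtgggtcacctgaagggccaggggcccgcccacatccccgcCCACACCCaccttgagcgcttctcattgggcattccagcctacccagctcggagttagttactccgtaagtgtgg

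Tbx3 and Sall4 were acetylated in every population. At Tbx3 (chr5:119670669-119684724, + strand), H3K27ac was listed at chr5:119666403-119676748, over the first TSSs, in 9 of 9 libraries, which was also the case at the Sall4 promoter and at 7.36% of all genes. H3K27ac covered 14.1, 14.2 and 3.42% of the Tbx3 locus in Oct4+, 6.6, 3.63 and 7.8% in DP and 8.95, 5.35 and 6.03% in Pdgfra+. These groups overlapped (exact permutation p = 0.389, adjusted p = 0.642). With equal numbers of peaks every Pdgfra+ library lay above every Oct4+ library (1 of 7 members, beside 14.7% of genes). An internal TSS 9.58 kb into the gene had a listed H3K27ac peak in 3 Oct4+ libraries and in no other. The summed signals, 22262, 14509 and 8035, were below the weakest peaks of Pdgfra+ replicates 1 and 3 (27115 and 28044). Those of 14509 and 8035 were also below the weakest peak of DP replicate 3 (14586). H3K4me1 was listed at this TSS in 1, 2 and 1 libraries. H3K4me1 covered 2.95, 23 and 3.31% of the locus in Oct4+, 0, 29.9 and 9.11% in DP and 0, 0 and 8.29% in Pdgfra+, and neither repressive mark had a peak. The shared H3K27ac maximum, chr5:119670227-119670526 (+ strand, in an intron of the antisense gene Tbx3os1), is shown as the element common to all populations. It held none of the motifs.
Tbx3 shared H3K27ac maximum: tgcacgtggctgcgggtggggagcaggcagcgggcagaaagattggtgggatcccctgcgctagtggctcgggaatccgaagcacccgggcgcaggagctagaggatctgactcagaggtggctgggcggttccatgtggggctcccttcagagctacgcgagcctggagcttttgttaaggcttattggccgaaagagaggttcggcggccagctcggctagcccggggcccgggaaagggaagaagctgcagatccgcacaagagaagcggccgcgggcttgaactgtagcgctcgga

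Sall4, the zinc finger partner of OCT4 (chr2:168748332-168767943, - strand), carried H3K27ac over the TSSs 0.742 to 2.7 kb into the gene in 9 of 9 libraries and at its first TSS in 1, 2 and 2 libraries of Oct4+, DP and Pdgfra+. H3K27ac covered 18.1, 30.9 and 5.65% in Oct4+, 10.3, 7.47 and 8.23% in DP and 6.97, 4.95 and 6.72% in Pdgfra+, so that DP lay above Pdgfra+ (1 of 7 members, beside 1.5% of genes). That was no longer so with equal numbers of peaks or by percentile. H3K4me1 covered 1.74, 24.1 and 7.34% in Oct4+, 3.86, 19.8 and 9.83% in DP and 0, 0 and 6.61% in Pdgfra+ (exact permutation p = 0.386, adjusted p = 0.822). H3K9me3 covered 6.55, 6.6 and 4.37% in Oct4+, 11.1, 13 and 5.87% in DP and 19.6, 10.5 and 15.4% in Pdgfra+ (5.84 ± 1.27, 9.99 ± 3.68 and 15.2 ± 4.55, exact permutation p = 0.0571, adjusted p = 0.395). Every Pdgfra+ library lay above every Oct4+ library (1 of 5 members covered, beside 6.59% of genes), with percentiles of 97.7 to 99.2 against 88.1 to 92.1. H3K27me3 was listed in 2 DP libraries (5.45 and 3.92%) at chr2:168802323-168810195, upstream of the gene, and in no other library. At 5322 H3K9me3 peaks per list the Pdgfra+ values were 19.6, 10.5 and 10.2% and the Oct4+ values were 2.18, 4.45 and 3.04%.

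The H3K9me3 peaks of the Sall4 locus lay in separate intervals. The interval at chr2:168720721-168727830, within Atp9a, was listed in 9 of 9 libraries. At chr2:168743704-168752449, over the end of Sall4, it was listed in 0 Oct4+, 2 DP and 3 Pdgfra+ libraries (49288, 15365 and 21566 in Pdgfra+). At chr2:168754051-168758742 it was listed in 3 Pdgfra+ libraries only (22386, 7747 and 10440), above the weakest peaks of the Oct4+ lists (3752 to 4609). The last interval covers an annotated TSS 12 kb into the gene. H3K9me3 at a promoter in all Pdgfra+ and no other library was found at 15 genes (0.0684%). The TSSs with H3K27ac in 9 of 9 libraries were others, 0.742 to 2.7 kb into the gene. At the TSS 12 kb into the gene, H3K27ac was listed in 1 Oct4+ library and H3K4me1 in 2 Oct4+ and 1 DP libraries. H3K27ac overlapped the H3K9me3 interval in 2 Oct4+ and 1 DP libraries. The maximum, chr2:168755675-168755974 (+ strand, exon of Sall4, from Pdgfra+ replicate 3), is shown as the element that carried H3K9me3 in Pdgfra+ alone. It held none of the motifs.
Sall4 H3K9me3 maximum: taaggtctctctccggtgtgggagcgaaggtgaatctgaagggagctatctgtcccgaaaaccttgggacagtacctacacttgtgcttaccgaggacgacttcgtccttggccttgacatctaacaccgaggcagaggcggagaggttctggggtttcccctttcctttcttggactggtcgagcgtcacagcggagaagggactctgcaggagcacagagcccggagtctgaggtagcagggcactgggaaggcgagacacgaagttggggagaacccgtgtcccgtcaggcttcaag

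**Figure D4:**
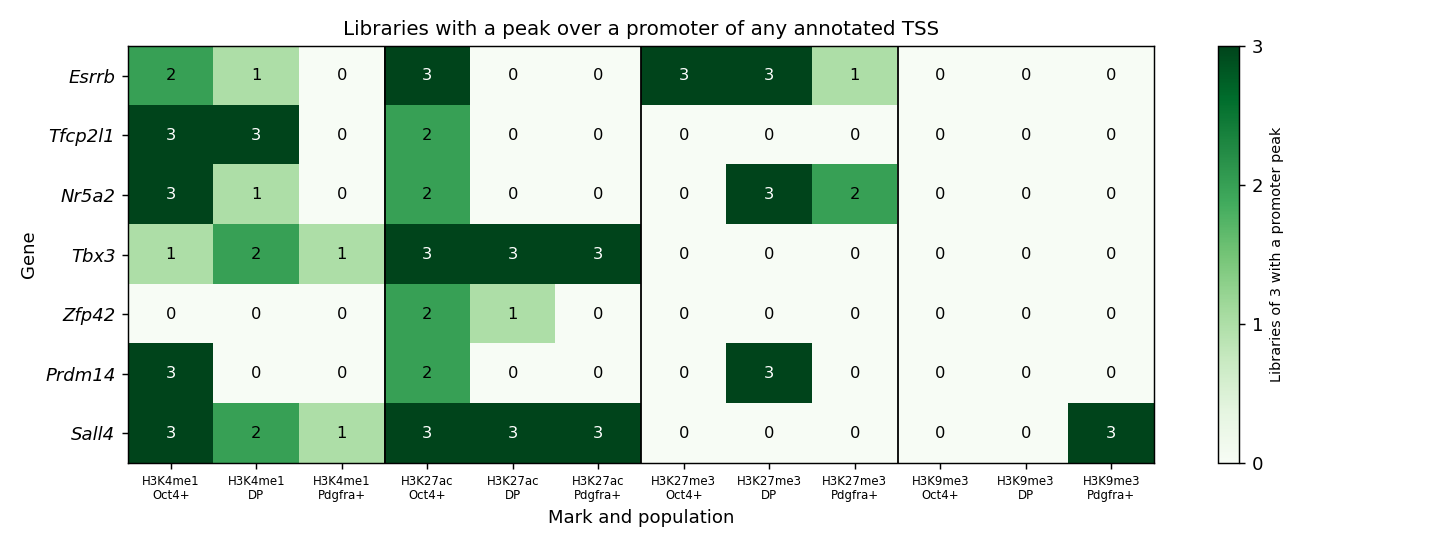
Number of libraries of 3 (colour and digit, 0 to 3) with a peak over a promoter of any annotated TSS, for each gene (rows) and each mark and population (columns). H3K27ac fills the Oct4+ column with 2 or 3 libraries for every gene, and in DP it reaches 3 only at Tbx3 and Sall4.

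H3K4me1 regions outside promoters of protein-coding genes were then sorted by the other marks of the same population. A region had a peak in at least 2 of 3 libraries and was active with H3K27ac, bivalent with H3K27me3 and primed with neither. Oct4+ had 13 such regions in the 7 loci (9 active, 4 primed), DP had 8 (2 active, 5 primed, 1 bivalent) and Pdgfra+ had 1 (primed). Esrrb supplied 5 of the 9 active regions of Oct4+, whereas its DP region outside promoters, 42.5 kb into the gene, was bivalent. Of the 5 primed DP regions, 3 were at Tbx3, 1 at Tfcp2l1 and 1 at Sall4. H3K27ac lay over 2 of them in at least 2 Oct4+ libraries, at Tbx3 (chr5:119709828-119714076) and Sall4 (chr2:168789623-168792962), and over none in Pdgfra+. The summed signals were 17962 and 11950 at Tbx3. At Sall4 they were 6403 and 8775, below the weakest peak of every DP list (13683 to 14586). H3K4me1 lay over 0 of the 5 in at least 2 Oct4+ libraries and over 3 in at least 1 Pdgfra+ library. The wide Esrrb region at chr12:86467897-86485394 and the Tfcp2l1 start, which carried H3K4me1 in DP without H3K27ac, overlap promoters and are not in these counts. The counts have no share over all genes beside them, and the lists behind them differed in length. Replicates 1 and 2 of H3K4me1 in Pdgfra+ held 1723 and 1074 peaks. The H3K27ac lists held 8574 to 65131 peaks in Oct4+ and 3079 to 12244 in DP. The counts moved with equal numbers of peaks, as given below.

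Ranks within libraries were compared as a second measure, though they too vary with the length of a list. A locus without an H3K27ac peak stood at 18.5 in DP replicate 1 (10957 peaks) and at 34.3 in DP replicate 2 (3079 peaks). The mean percentile of H3K27ac was 85.6, 23.6 and 27.1 at Esrrb, 83.3, 57.4 and 40.1 at Tfcp2l1 and 76.2, 35.1 and 27.1 at Zfp42, in the order Oct4+, DP and Pdgfra+. At Tbx3 it was 74.3, 77.4 and 86.3, and at Sall4 it was 90.6, 84.9 and 85. For H3K4me1, Tfcp2l1 (93.8, 89.2 and 72.3) and Sall4 (90.1, 92.3 and 58.2) overlapped between DP and Oct4+. Esrrb stood at 96.9, 76.4 and 47.6, and by this measure every Oct4+ library lay above every DP library there.

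**Figure D5:**
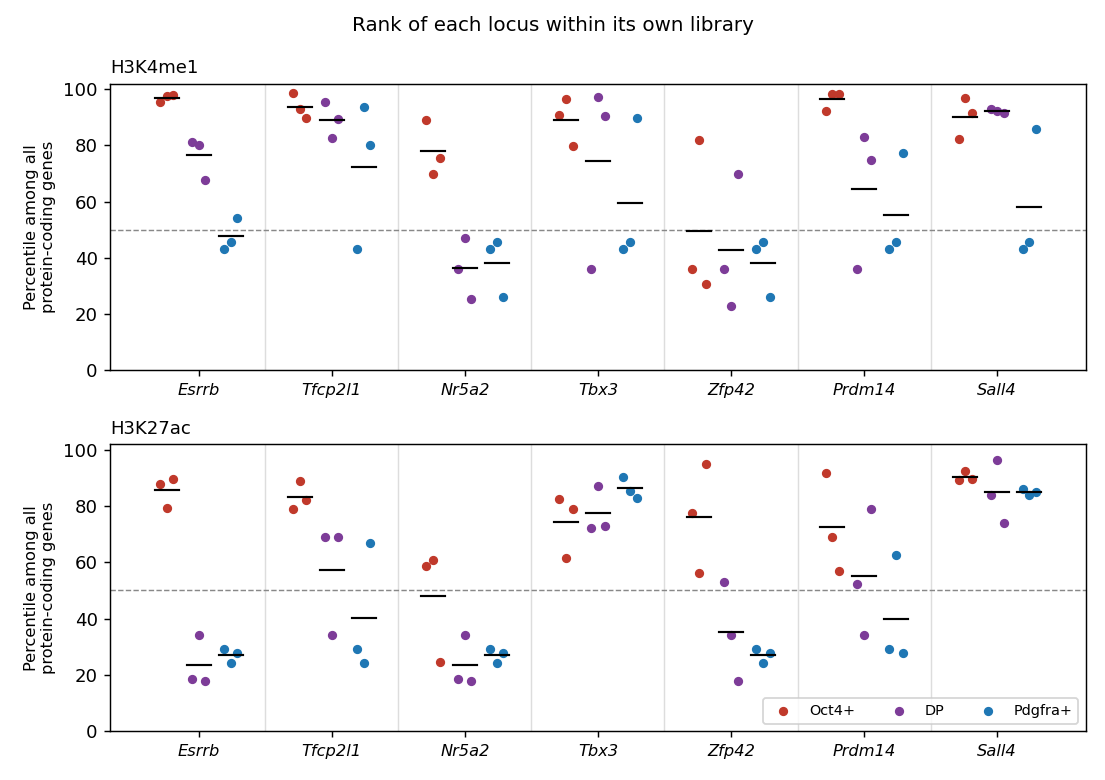
Percentile of each locus among all protein-coding genes of the same library (y axis, 0 to 100) for H3K4me1 (top) and H3K27ac (bottom), by gene (x axis); points are libraries (red Oct4+, purple DP, blue Pdgfra+), bars are means of 3 and the dashed line is the 50th percentile. At Esrrb the H3K27ac points of Oct4+ lie at 79.3 to 89.6 and the others at 17.9 to 34.3, while at Sall4 all 9 lie at 74.1 or higher.

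Other genes of the network gave the same kinds of counts. Of 20 further naive pluripotency genes, H3K27ac in Oct4+ lay above Pdgfra+ at 11 (Nanog, Pou5f1, Sox2, Klf2, Klf5, Dppa3, Dppa5a, Fgf4, Tet2, Tdgf1 and Jam2), beside 19.9% of genes, and above DP at 11, beside 9.42%. For H3K4me1, DP lay above Pdgfra+ at 7, beside 6.07%, and Oct4+ lay above DP at 2, beside 4.31%. Their median covered percent for H3K4me1 was 9.74 in Oct4+, 9.75 in DP and 0.922 in Pdgfra+, and for H3K27ac 13.6, 3.41 and 2.11. H3K27ac was at a promoter of 16, 5 and 3 of them in at least 2 libraries. None passed the adjusted exact test. These 20 include the 5 pluripotent markers used above to check the identity of the populations. Windows of neighbouring genes can take in the same peaks.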

How the data were processed

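CUT&Tag was carried out by the authors on cells of a single nEnd line sorted by OCT4-mCherry and PDGFRA, for 4 marks in 3 populations with 3 replicates each. The authors computed fragment coverage with BEDtools and called peaks in each library against IgG with SEACR in stringent mode, without pooling replicates. The deposited lists give the total and the maximum signal of each peak, which are whole-number coverage and were used as not scaled to depth. The submitters' processing notes name Bowtie2, SAMtools 1.12, bcl2fastq 2.19.1, bedtools 2.26.0 and deepTools, and the build is mm10, which is GRCm38. The depth of the libraries is unknown, so only the number and weakest signal of listed peaks describe precision. 3 IgG samples were not analysed here.

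From these lists, the covered percent was computed for 21938 protein-coding genes (GENCODE vM21), and 0 peaks lay past the end of a chromosome. Populations were compared with an exact permutation F test (smallest possible p 0.00357), adjusted by the Benjamini-Hochberg method, with limma 3.58.1 in R 4.3.3 on log2(covered percent + 1) as an alternative. Python 3.11.15, NumPy 2.4.6, pandas 2.3.3 and SciPy 1.17.1 were used, figures were drawn with Matplotlib 3.10.9, and covered bases were checked with bedtools 2.31.1. The tests were run on simulated data first, with 100 genes raised 2-fold and 100 raised 4-fold among 20040. These were fewer than the 7.14% that have to pass together, so the adjusted exact test could call no gene there. Its lack of calls carries no information on which genes did not change. Limma called 0% and 1% of the changed genes with the real library totals and 23% and 99% with equal totals. Same-numbered libraries were checked for pairing by the correlation of their deviations from the population means, which was over 0.1 in every pair for Oct4+ with Pdgfra+ in H3K27me3 and for no other comparison. The percentile of a locus without a peak is the middle rank of all genes without one. Intervals merge overlapping peaks of the libraries of a mark. Sequences are the 300 bases around the centre of the strongest part of an interval's strongest peak, read from the GRCm38 genome, and RefSeq promoters (250 bases before the start, GRCm38), which were matched for 4 of the 7 genes. For each gene and mark, the intervals named were the one listed in the most libraries and those listed in 3 of 3 libraries of a population and 0 of 3 of another, up to 3 by mean signal. For each gene, the 3 genes with the most similar profile were named. The motifs searched were TNAAGGTCA (ESRRB and NR5A2), TTCCNGGAA (STAT), GGTGTGA (T-box), ATGCNAAT (octamer), GGGNGTGG (KLF) and the paired motif of TFCP2L1, on both strands. The members, gene lists and motifs were chosen with earlier results of these data known. The study describes the replicates as biological, but all came from the same line.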

Additional observations from a re-analysis of the deposited data

How the results depend on the processing

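No member passed an adjusted p of 0.05 by the exact test or by limma, which called 860 genes for H3K9me3 and 0 for the other marks. Counts of members whose populations did not overlap are given with the share of all genes in parentheses. With equal numbers of peaks, for H3K27ac Oct4+ lay above Pdgfra+ at 1 member (7.8%), above DP at 1 (7.1%) and DP above Pdgfra+ at 0 (1.69%). For H3K4me1 Oct4+ lay above DP at 2 (5.1%), Tfcp2l1 and Prdm14, without Nr5a2, and above Pdgfra+ at 3 (8.8%), Esrrb, Tfcp2l1 and Prdm14. DP lay above Pdgfra+ for H3K27me3 at 0 (11.9%) and Oct4+ above Pdgfra+ for H3K9me3 at 0 (15.5%). H3K27ac at Tbx3 went from a higher mean in Oct4+ to Pdgfra+ above Oct4+ throughout, at 1 member (14.7%). With the upper 50% of peaks, the H3K27me3 count of DP above Pdgfra+ was 0 (12%). With 20 kb flanks, DP lay above Pdgfra+ for H3K4me1 at 2 (5.85%) and Oct4+ above Pdgfra+ for H3K9me3 at 1 (13%). Within 5 kb of a TSS the H3K27ac counts were 1 (9.18%), 1 (4.4%) and 0 (1.27%), Oct4+ above DP for H3K4me1 was 2 (2.93%) and Oct4+ above Pdgfra+ for H3K9me3 was 0 (9.3%). By number of peaks, Oct4+ lay above DP at 2 for H3K4me1 (4.38%) and 4 for H3K27ac (11.4%), and DP above Pdgfra+ for H3K27ac at 0 (0.484%). By percentile, Oct4+ above DP and DP above Pdgfra+ gave 3 (14.5%) and 2 (8.99%) for H3K4me1 and 1 (14.7%) and 1 (6.65%) for H3K9me3. DP above Pdgfra+ for H3K27ac gave 0 (9.09%), Sall4 having mean percentiles of 84.9 and 85. The cause of these changes was not tested.

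Leaving out 1 library at a time gave 3 to 7 members (19.9 to 74.4%) with Oct4+ above Pdgfra+, 2 to 7 (9.42 to 58.2%) with Oct4+ above DP and 1 to 3 (1.5 to 40.8%) with DP above Pdgfra+ for H3K27ac, and 3 to 6 (11.3 to 30.8%), 1 to 3 (4.31 to 12.8%) and 1 to 4 (6.09 to 37%) for H3K4me1. For H3K27me3 DP lay above Pdgfra+ at 1 to 3 (14.9 to 56.2%). For H3K9me3 Oct4+ lay above DP at 0 to 2 (11.1 to 24.9%), with 2 without Oct4+ replicate 3 and 1 without DP replicate 2, and DP above Pdgfra+ at 0 to 1 (3.84 to 14.5%), with 1 without DP replicate 3 or Pdgfra+ replicate 1.

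Counts of H3K4me1 regions outside promoters moved under most of the settings tried. In at least 1 library there were 38 in Oct4+ (25 active, 11 primed, 2 with both marks), 16 in DP (4 active, 11 primed) and 10 in Pdgfra+ (4 active, 5 primed, 1 bivalent). In all 3 libraries there were 5 (4 active, 1 primed), 1 (0 active, 1 primed, 0 bivalent) and 0 (0 primed). With equal numbers of peaks the regions were 3 (2 active, 1 primed), 1 (0 active, 1 primed, 0 bivalent) and 0 (0 primed), and with the upper 50% of peaks Oct4+ had 5 active, DP had 3 (0 active, 3 primed, 0 bivalent) and Pdgfra+ 0 (0 primed). With 20 kb flanks DP had 3 primed regions. Without 1 library, Oct4+ had 5 to 12 regions (4 to 5 active, 0 to 8 primed), DP 2 to 7 (0 to 2 active, 1 to 7 primed, 0 to 1 bivalent) and Pdgfra+ 0 to 1 (0 to 1 primed).

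Oct4+ with Pdgfra+ in H3K27me3 was the only comparison with a correlation over 0.1 in every same-numbered pair. Single pairs of other comparisons were higher, such as 0.638, 0.479 and 0.716 for replicate 1 of H3K4me1. Pairing of the libraries in the other comparisons can therefore not be excluded. Of 9 pairs of same-numbered libraries per mark, 4, 1, 3 and 4 had a correlation of deviations over 0.1 (H3K4me1, H3K27ac, H3K27me3, H3K9me3). Within the replicate block, where 216 permutations allow no p below 0.0278, H3K4me1 gave 5 members with Oct4+ above Pdgfra+ in every pair (18.9%), 3 with Oct4+ above DP (11.9%) and 3 with DP above Pdgfra+ (20.2%). H3K27me3 gave 1 with Oct4+ above Pdgfra+ (11.5%) and H3K9me3 gave 2 with Oct4+ above DP (17.4%).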

Other observations

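The genes whose profile was most like that of each locus were taken by Pearson's r over 36 libraries of the percentile within a library, centred within each mark. The points share libraries and marks, and r is given as a description. The highest values were with Ncor1 (0.887), Itga6 (0.875) and Pdk1 (0.855) for Esrrb, Gm21972 (0.887), Armc9 (0.813) and Zfand1 (0.789) for Tfcp2l1, Ankrd2 (0.789), Ntng2 (0.787) and Ubtd1 (0.774) for Nr5a2, and Atp5b (0.929), Inpp5k (0.927) and Adat3 (0.925) for Tbx3. For Zfp42 they were Gm19935 (0.788), Rps12 (0.754) and Zfp141 (0.747), for Prdm14 Tfrc (0.792), Gabbr1 (0.786) and Med13l (0.782), and for Sall4 Snrpc (0.82), Ncoa3 (0.805) and Ubqln4 (0.779). Between the members r ran from 0.00293 for Nr5a2 with Tbx3 to 0.541 for Nr5a2 with Prdm14. The highest values above were picked from far more genes than there are members, which by itself favours a higher maximum. The values can therefore not tell whether the members were less alike than other genes.

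Among the 20 further naive pluripotency genes, H3K27me3 in DP lay above Oct4+ at 3, Sox2, Klf2 and Dppa5a, beside 23.7% of genes, and H3K4me1 in DP lay above Oct4+ at 2, Dppa2 and Dppa4, beside 6.33%. Over 7 trophectoderm markers the median covered percent for H3K27ac was 6.22 in Oct4+, 8.35 in DP and 3.51 in Pdgfra+, with 2, 2 and 3 promoters listed in at least 2 libraries.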
